A study of Mus musculus with 18 samples.

Results

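Low-complexity islet libraries are described here, which are the libraries that missed an unusual number of the genes seen in the series. They were chosen on measured values: a library was called low-complexity when 200 or more of the 10509 listed genes stood at the lowest value of the deposited table, which is 0 reads. The rule took 3 of the 18 libraries, KO 2, KO 3 and WT 7, and left 15 others, of which 8 were KO and 7 were WT. The libraries came from pancreatic islets of mice given a high-fat diet for 12 weeks. The KO mice (genotype NRK1_BKO) carry a deletion of NRK1, a kinase of NAD synthesis from nicotinamide riboside, driven by Ins1Cre and so directed at beta cells. The WT mice (genotype NRK1_WT) had the same diet, and each library is from 1 mouse. Each library was made from 50 ng of total RNA with 20 PCR cycles, and its reads lie at the 3' ends of transcripts. The titles of the WT samples also carry Ins1Cre, and the labels do not say whether those mice have Cre, nor do they give age or sex. The comparison was therefore between libraries picked by their own values, and it answers which transcript classes stood lower or higher in them, not what a treatment did.

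Islets are mostly beta cells, which make and export insulin through the endoplasmic reticulum (ER), the Golgi and secretory granules. Secretory proteins enter the ER through the translocon, are glycosylated and folded there by chaperones, and leave in COPII vesicles, while ATF6 and the spliced form of XBP1 raise transcription of the chaperones when folding is overloaded. Mitochondrial ATP production couples glucose to insulin release, and most subunits of the respiratory chain are encoded in the nucleus, many by short messenger RNAs, as are ribosomal proteins. A library of low complexity is one in which fewer distinct transcripts were caught, whatever the reason.

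WT 7 had 346 listed genes at 0 reads, KO 2 had 320 and KO 3 had 227, against 33 to 150 with a median of 90 in the other 15 libraries. The library nearest the threshold from above was KO 3 with 227, and the nearest from below was WT 1 with 150. The genes missed were rare ones: those at 0 in a low-complexity library had a median of their mean log2 values of 1.26, against 4.10 over all listed genes, and 14 genes were at 0 in all 3. KO 2, KO 3 and WT 7 also held the fewest reads outside the insulin genes Ins1 and Ins2, with 1361977, 1333980 and 1269488, against 1502015 to 2238523 in the others. Each library was thinned in expectation to 1269488 such reads, which gave 328 genes at 0 in KO 2, 235 in KO 3 and 346 in WT 7, against 70.1 to 186 in the others. The reads of Ins1 and Ins2 were not matched, and the count is the one that chose the libraries.

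**Figure D1:**
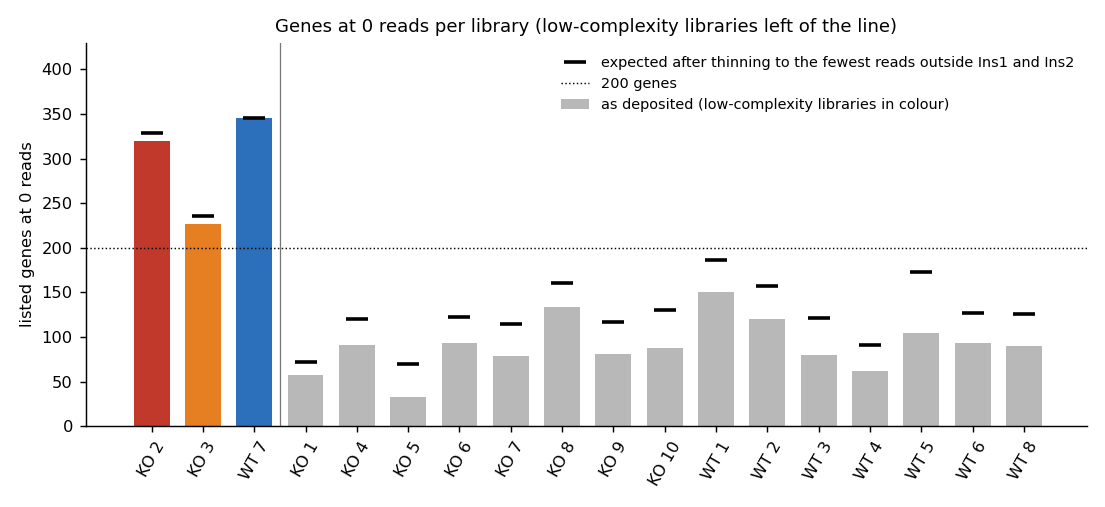
Listed genes at 0 reads in each library (y axis, number of genes), with the low-complexity libraries KO 2, KO 3 and WT 7 left of the vertical line and the other 15 right of it. Bars are the deposited values, black dashes the number expected after thinning to 1269488 reads outside Ins1 and Ins2, and the dotted line marks 200 genes; KO 2, KO 3 and WT 7 lie above it by both measures.

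The 3 libraries also scattered more than the rest at well-counted genes. Over the 5444 genes with a mean log2 value above 4, the difference of a gene from the mean of the other libraries of its genotype had an SD of 0.78 log2 units in KO 2, 0.62 in KO 3 and 0.60 in WT 7, against 0.32 to 0.49 in the others. The share of genes more than 1 log2 unit away was 18.4% in KO 2, 9.35% in KO 3 and 8.17% in WT 7, against 0.588% to 4.0% in the others. At the 255 genes with a mean log2 above 8, this SD was 0.43 to 0.86 in the 3 libraries and 0.22 to 0.44 in the others, where counting alone gives 0.05 in the 3 libraries and 0.04 in the others. As a check of the islet label, Ins2 took 48.3% of the reads in KO 2, 56.1% in KO 3 and 45.9% in WT 7, against 33.4% to 47.8% in the others. Nmrk1, which encodes NRK1, had log2 values of 1.05 in KO 2, 1.88 in KO 3 and 1.14 in WT 7, against 0.53 to 3.32 in the others, with KO and WT libraries overlapping. The labels do not say which part of the gene is deleted, so its 3' reads do not check the genotypes. Reads are PCR copies and not independent molecules, so spread expected from counting is a lower limit.

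Between low-complexity and other libraries, 559 of 5444 genes were lower and 380 higher (limma with genotype as a covariate, two-sided, Benjamini-Hochberg adjusted p under 0.05 over all genes tested), which is 10.3% and 6.98% of the genes. The fit takes a common spread for all libraries, while KO 2, KO 3 and WT 7 scattered more than the rest, so its p-values may be too small. The median difference over all genes tested was 0.004 log2 units. Of the lower genes 211 passed 2-fold, and of the higher ones 31. Without KO 3, 309 genes were lower and 104 higher, and without KO 2, 238 were higher. With a term for runs of consecutive animal numbers, 12 were lower and 0 higher. Of the 5444 genes, 1 had a library at 0 reads and so entered the rule that chose the libraries, the acinar enzyme gene Cpa1 with 0 reads in WT 7. In 149 genes all 3 low-complexity libraries lay below all 15 others, 2.74% of the genes, and in 147 genes, 2.70%, all 3 lay above. Values are log2 of CPM plus a floor of 0.562, a scale on which fold changes of scarce transcripts come out too small.

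The 3 marker genes named with the rule did not move alike. Ndufab1 (chromosome 7, 122086815 to 122101848, GRCm38.p6), the acyl carrier subunit of respiratory complex I, had log2 values of 2.45 in KO 2, 4.88 in KO 3 and 3.54 in WT 7, against 3.94 to 5.01 with a median of 4.37 in the others. KO 2 and WT 7 lay below every other library and KO 3 lay among the highest, and the difference of -0.72 (SE 0.30) did not pass the test (limma adjusted p = 0.0982). Xbp1 (chromosome 11, 5520641 to 5525993), the transcription factor of the unfolded protein response, had 5.91 in KO 2, 3.98 in KO 3 and 3.94 in WT 7, against 4.99 to 6.10 with a median of 5.66. Here KO 3 and WT 7 lay below every other library while KO 2 lay within their range, and the difference was -1.08 (SE 0.26, limma adjusted p = 0.00640). Junb (chromosome 8, 84976909 to 84978748), an immediate early gene of the AP-1 family, had 4.67 in KO 2, 2.85 in KO 3 and 1.78 in WT 7, against 4.30 to 6.80 with a median of 5.39. KO 3 and WT 7 lay below all others and KO 2 overlapped with the lowest of them, and the difference was -2.37 (SE 0.33, limma adjusted p = 0.000106).

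**Figure D2:**
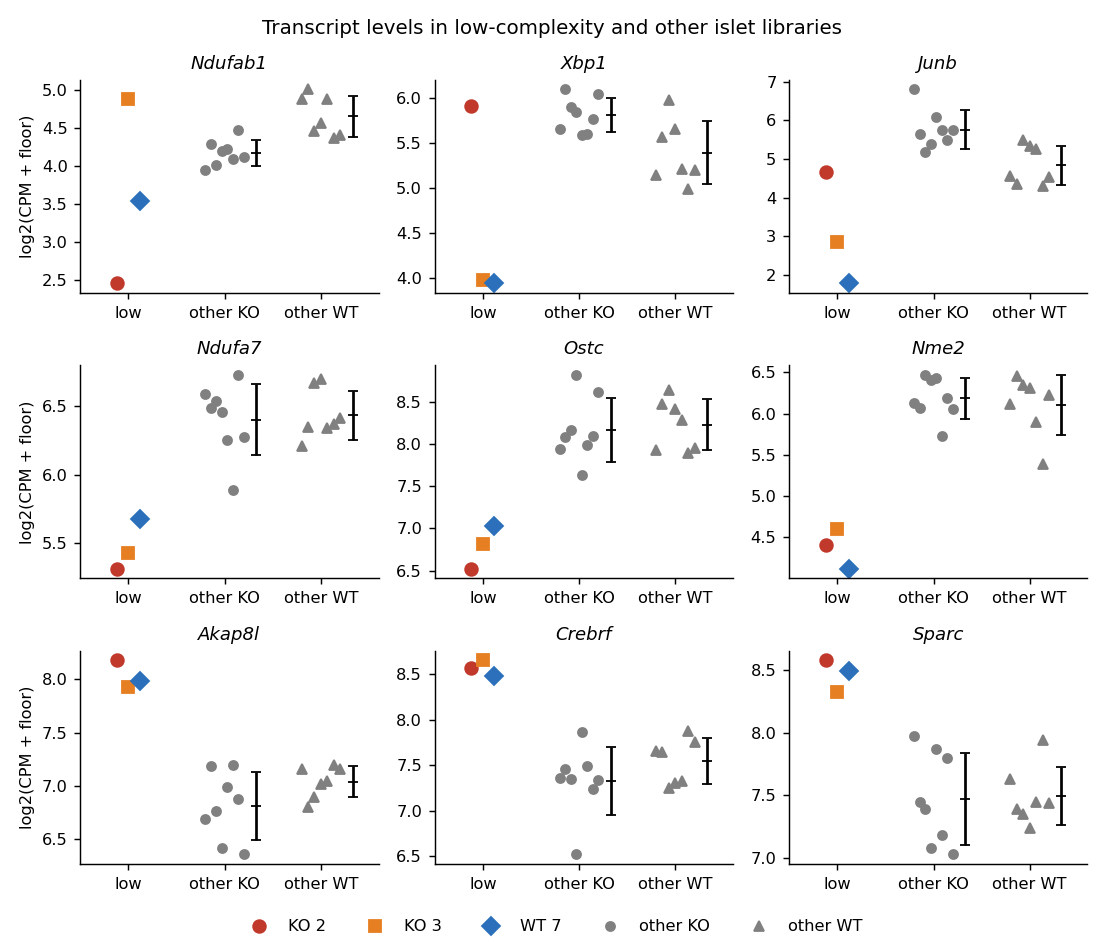
Log2 values (y axis, log2 of CPM plus the floor) of 9 genes in KO 2, KO 3 and WT 7 (left, coloured) and in the other 8 KO and 7 WT libraries (grey, each point 1 library; bars are mean and SD). KO 3 stands high for Ndufab1 and KO 2 for Xbp1, while for Ndufa7, Ostc and Nme2 all 3 lie below, and for Akap8l, Crebrf and Sparc all 3 lie above, every other library.

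Genes for mitochondrial proteins, the class with the most genes tested, held many of the lower genes. Of 159 genes tested in 7 mitochondrial lists, 48 fell and 2 rose, or 30.2% and 1.26%. Over all genes tested 10.3% fell and 6.98% rose, and among cytosolic ribosomal proteins 36.4% fell. Within the class the shares were highest in the respiratory chain and the ATP synthase. Of 28 complex I subunits tested, 15 fell, none rose and the median difference was -0.70, with 27 of the 28 below 0. That median was -0.42 over the 16 genes with a mean log2 above 6 and -0.47 with the run of animal numbers as a term. Of 23 genes of complexes II to IV with cytochrome c, 9 fell, 1 rose and the median was -0.53, and of 12 ATP synthase genes 6 fell, none rose and the median was -0.55, or -0.23 without KO 2. With the run as a term these medians were -0.24 and -0.36, and complexes II to IV were at -0.33 without KO 2. By library, complexes II to IV were at -0.91 in KO 2, -0.35 in KO 3 and -0.32 in WT 7, against -0.44 to 0.40 in the others. The ATP synthase list was at -0.89, -0.29 and -0.17 in KO 2, KO 3 and WT 7, against -0.48 to 0.41. In both lists KO 3 and WT 7 lay within the range of the others. The median difference of complex I genes from the other libraries of the same genotype was -1.08 in KO 2, -0.48 in KO 3 and -0.37 in WT 7, against -0.50 to 0.36 in the other 15 libraries. The lowest of those others was KO 8, which stood below KO 3 and WT 7 and was not a low-complexity library.

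Ndufa7, an accessory subunit of complex I, had log2 values of 5.32 in KO 2, 5.43 in KO 3 and 5.67 in WT 7, against 5.89 to 6.72 with a median of 6.41 in the others. The groups did not overlap, and the difference was -0.93 (SE 0.16, limma adjusted p = 0.000642). Ndufc2, another accessory subunit, fell by 1.00, and Ndufs8, an iron-sulfur subunit, fell by 1.98. The size for Ndufs8 came mostly from KO 2, where it had 2 reads and a difference of -4.39 from the other KO libraries, beside -0.96 in KO 3 and -0.71 from the other WT libraries in WT 7.

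In complex IV, Cox7b had 4.31 in KO 2, 4.74 in KO 3 and 3.44 in WT 7, against 4.88 to 6.07 with a median of 5.41 in the others, and the groups did not overlap (difference -1.33, SE 0.23, limma adjusted p = 0.000478). Cox5a fell by 1.43 and Cox7a2 by 0.96. Cox7a2l, which helps respiratory complexes to assemble into supercomplexes, went the other way with 8.15, 8.33 and 7.95 in KO 2, KO 3 and WT 7, against 6.50 to 7.49 in the others. It rose by 1.08 (SE 0.19, limma adjusted p = 0.000586). Among ATP synthase genes, Atp5g3, which encodes a copy of the membrane ring subunit, had 6.35, 5.48 and 5.54 in KO 2, KO 3 and WT 7, against 6.62 to 7.80 in the others, with no overlap, and fell by 1.41 (SE 0.23, limma adjusted p = 0.000314). Atp5h fell by 1.64 and the catalytic subunit gene Atp5b by 0.92. Atp5c1, which encodes a subunit of the central stalk and was chosen here after its values were seen, had a difference of -4.05 from the other KO libraries in KO 2 and -0.60 in KO 3, and of -0.13 from the other WT libraries in WT 7.

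Enzymes of the mitochondrial matrix and carriers of the inner membrane had smaller medians. Of 17 citric acid cycle genes 5 fell, none rose and the median was -0.38, and of 14 Slc25 carriers 3 fell, none rose and the median was -0.20. These were the 2 of 34 lists with at least 5 genes tested whose median lay below that of all 15 other libraries in each of KO 2, KO 3 and WT 7. Fh1, fumarase, had log2 values of 4.10 in KO 2, 1.33 in KO 3 and 0.47 in WT 7, against 3.12 to 5.69 with a median of 4.58. KO 3 and WT 7 lay far below all others and KO 2 lay among them, and the difference was -2.65 (SE 0.42, limma adjusted p = 0.000242). The Fh1 value in WT 7 rested on 2 reads, so the size of this difference is uncertain. Idh3b, a subunit of isocitrate dehydrogenase, fell by 1.16, Suclg1, of succinyl-CoA synthetase, by 0.89, and Slc25a12, the aspartate-glutamate carrier, by 0.80. Of 19 genes of the mitochondrial import list 5 fell and none rose, with a median of -0.15. This was -0.63 in KO 2, -0.20 in KO 3 and 0.07 in WT 7, against -0.31 to 0.23 in the others. Among the lower ones were Tomm6 by 0.86, Timm29 by 1.57 and Timm8b by 1.29. The size for Timm29 came mostly from KO 2, with 5 reads and a difference of -3.24, beside -0.86 in KO 3 and -0.70 in WT 7. Mitochondrial ribosomal proteins stood near the background, with 5 of 46 lower, 1 higher and a median of -0.16 (-0.022 without KO 2, -0.013 with the run as a term), which was -0.41 in KO 2, 0.05 in KO 3 and 0.01 in WT 7. Mrpl53, Mrpl33 and Mrpl10 fell by 1.29, 1.08 and 0.99.

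Among cytosolic ribosomal proteins, 61 genes were listed, 33 passed the filter on mean log2, 12 fell and none rose. The lower share was 36.4%, beside 10.3% of all genes tested. The median was -0.49, with -0.60 in KO 2, -0.39 in KO 3 and -0.13 in WT 7, against -0.36 to 0.30 in the other libraries, so WT 7 lay within their range. Without KO 2 the median was -0.10, and with the run of animal numbers as a term it was -0.089. Rplp0, a stalk protein of the large subunit, had 4.83 in KO 2, 5.44 in KO 3 and 6.07 in WT 7, against values from 6.15 upward with a median of 6.57, with no overlap, and fell by 1.09 (SE 0.20, limma adjusted p = 0.00118). Rps26, of the small subunit, had 6.98, 7.08 and 6.77 in KO 2, KO 3 and WT 7, against 7.41 to 8.11, also without overlap, and fell by 0.79, while Rpl13a fell by 1.05. Ribosomal protein genes have many processed copies in the genome, and the labels do not say how reads that match several places were counted, so these values are uncertain. Of 38 translation factors tested 8 fell and 2 rose, with a median of -0.04, and Eif1, which helps select the start codon, fell by 0.90.

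**Figure D3:**
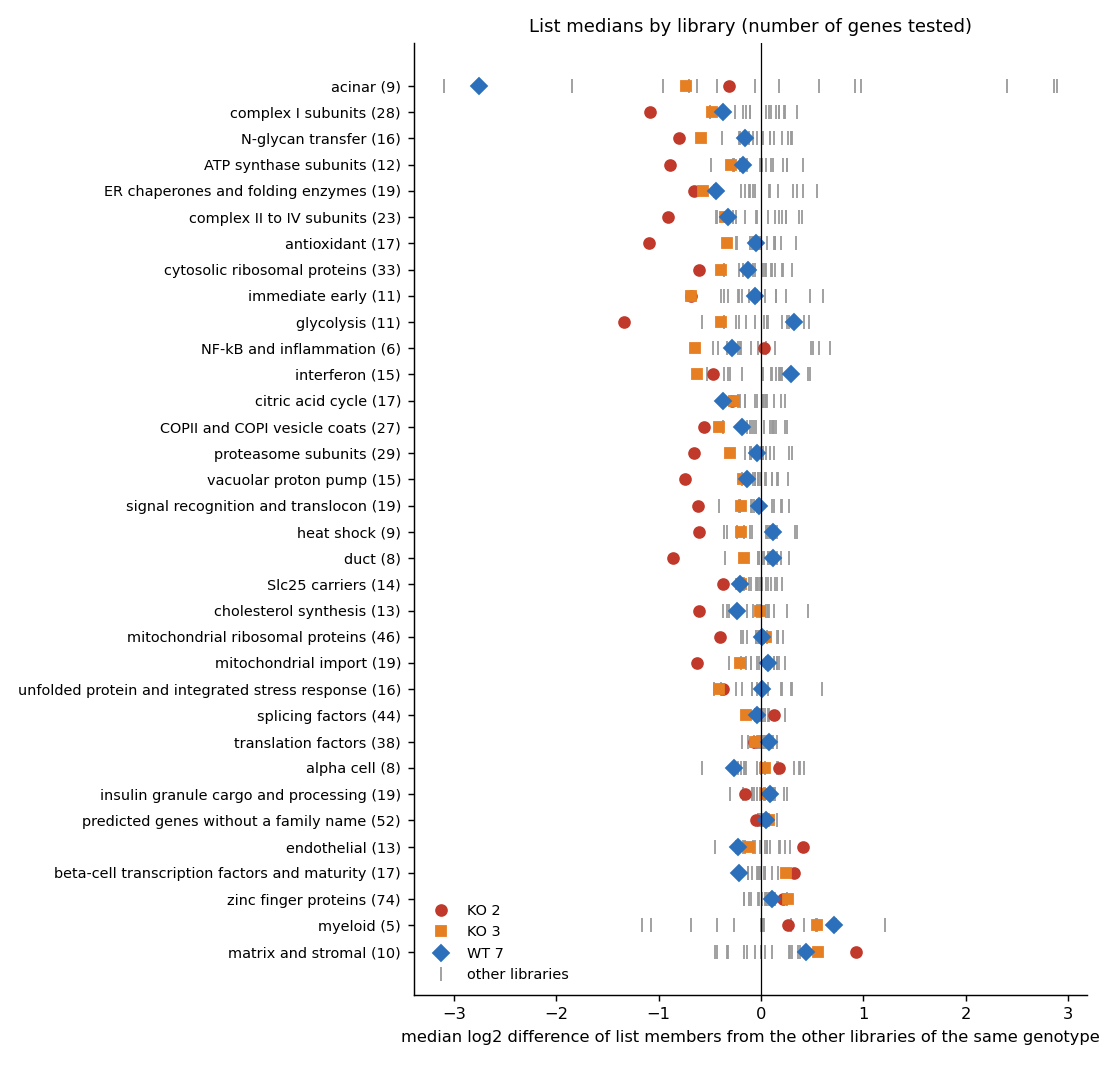
Median log2 difference of the tested genes of each list from the other libraries of the same genotype (x axis), for KO 2, KO 3 and WT 7 (coloured symbols) and the other 15 libraries (grey ticks); the number of genes tested is in brackets. Complex I lies at -1.08, -0.48 and -0.37 and the matrix and stromal list at 0.93, 0.56 and 0.44 in KO 2, KO 3 and WT 7, and KO 2 is the lowest symbol in many lists.

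In the secretory lists, genes of every step from entry to export were among the lower ones. Of 131 genes tested in 7 secretory lists, 37 fell and 1 rose, or 28.2% and 0.763%, against 10.3% and 6.98% of all genes tested. At entry, 3 of 19 genes of signal recognition and the translocon fell and none rose, or 15.8% lower beside 10.3% of all genes tested, with a median of -0.27. That median was -0.059 with the run of animal numbers as a term and -0.13 without KO 2. By library it was -0.62 in KO 2, -0.20 in KO 3 and -0.02 in WT 7, against -0.41 to 0.27 in the others. In N-glycan transfer 7 of 16 fell and none rose, with a median of -0.59. This was -0.80 in KO 2, -0.58 in KO 3 and -0.15 in WT 7, against -0.38 to 0.30 in the others, so WT 7 lay within their range. Spcs2, a subunit of the signal peptidase, had log2 values of 7.40 in KO 2, 7.10 in KO 3 and 7.13 in WT 7, against 7.78 to 8.65 with a median of 8.13, and fell by 1.01 (SE 0.16, limma adjusted p = 0.000242). Ostc, a subunit of the oligosaccharyltransferase, had 6.52, 6.81 and 7.03 in KO 2, KO 3 and WT 7, against 7.63 to 8.81 with a median of 8.09, and fell by 1.39 (SE 0.20, limma adjusted p = 0.000107). For both genes the 3 libraries lay below all 15 others. Ssr3, of the translocon-associated complex, fell by 1.62, the catalytic subunit gene Stt3a by 0.94 and the glucosidase gene Mogs by 0.82.

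ER chaperones and folding enzymes had 22 genes listed and 19 tested, of which 8 fell and none rose, with a median of -0.55, or -0.28 with the run of animal numbers as a term. Their median was -0.65 in KO 2, -0.57 in KO 3 and -0.44 in WT 7, against -0.46 to 0.54 in the other libraries, with KO 9 the lowest of these. Manf, a protein of the ER lumen that is induced by stress, had 5.83 in KO 2, 4.68 in KO 3 and 4.31 in WT 7, against 5.04 to 7.26 with a median of 6.47, and fell by 1.59 (SE 0.30, limma adjusted p = 0.00123). KO 3 and WT 7 lay below all others and KO 2 overlapped with them. The disulfide isomerase gene P4hb fell by 0.85 and the co-chaperone gene Dnajb11 by 1.11. Fkbp2, a prolyl isomerase of the ER chosen here after its values were seen, had a difference of 0.65 from the other KO libraries in KO 2, but -2.82 in KO 3, and -3.49 from the other WT libraries in WT 7.

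Chaperone promoters are known for the ER stress element, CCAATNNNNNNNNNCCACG, which ATF6 binds together with NF-Y. It was searched on both strands from 250 bases before to 50 after each start in the promoters of RefSeq (GRCm38.p6), where 7 of the 18 chaperone genes with a promoter held it, 38.9%, against 37 of 27025 genes, 0.137%. Of these 7 genes, Hspa5 and Creld2 fell and Hsp90b1, Dnajc3, Ero1b, Calr and Canx did not pass the test. The promoters of 3 of them, chosen after their values were seen, are shown because they carry the same element beside unlike values of the transcript: Hspa5 on chr2:34771840-34772139 (plus strand), Creld2 on chr15:88819396-88819695 (plus strand) and Hsp90b1 on chr10:86705395-86705694 (minus strand). Capitals mark the outer parts of the element, in either orientation.
Hspa5: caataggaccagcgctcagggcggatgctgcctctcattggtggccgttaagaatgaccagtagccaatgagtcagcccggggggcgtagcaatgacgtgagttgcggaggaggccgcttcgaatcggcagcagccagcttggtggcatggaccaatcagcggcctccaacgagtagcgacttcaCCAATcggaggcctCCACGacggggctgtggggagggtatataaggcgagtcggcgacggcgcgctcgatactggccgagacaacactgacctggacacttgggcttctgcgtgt
Creld2: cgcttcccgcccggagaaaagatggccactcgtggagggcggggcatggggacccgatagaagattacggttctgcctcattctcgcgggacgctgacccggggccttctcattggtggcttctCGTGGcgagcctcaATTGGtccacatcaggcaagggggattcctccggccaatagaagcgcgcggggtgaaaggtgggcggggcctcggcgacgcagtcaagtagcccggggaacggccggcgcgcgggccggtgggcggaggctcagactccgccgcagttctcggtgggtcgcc
Hsp90b1: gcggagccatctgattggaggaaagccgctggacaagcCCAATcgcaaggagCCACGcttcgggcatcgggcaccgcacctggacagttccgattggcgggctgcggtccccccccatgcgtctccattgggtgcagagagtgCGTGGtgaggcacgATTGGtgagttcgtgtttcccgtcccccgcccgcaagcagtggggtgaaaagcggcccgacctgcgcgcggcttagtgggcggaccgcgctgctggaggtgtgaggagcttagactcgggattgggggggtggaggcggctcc
Hspa5 encodes the main ER chaperone BiP and had differences of -1.18 in KO 2 and -0.62 in KO 3 from the other KO libraries and of -0.09 in WT 7 from the other WT libraries. It fell by 0.61 (SE 0.21, limma adjusted p = 0.0407). Creld2, an ER protein induced by stress, had differences of -1.48 in KO 2 and -1.98 in KO 3, while WT 7 was at the mean of its peers, and fell by 1.12 (SE 0.33, limma adjusted p = 0.0228). Hsp90b1, the chaperone GRP94, with 2 elements in this window, lay 0.51, 0.35 and 0.40 above its peers in KO 2, KO 3 and WT 7 and did not pass the test (limma adjusted p = 0.161). A match to these letters is a description of the promoter and no measure of binding.

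The 16 genes of the unfolded protein and integrated stress responses had a median of -0.10, with -0.37 in KO 2, -0.41 in KO 3 and 0.01 in WT 7. Of these genes 4 fell and none rose. Beside Xbp1 these were Ddit4, an inhibitor of mTORC1, and Edem2 and Edem1, whose products take misfolded glycoproteins out of the folding cycle (Edem1 was named after its values were seen). For export, 8 of 27 genes of the COPII and COPI coats and their cargo receptors fell and none rose, with a median of -0.35. This was -0.56 in KO 2, -0.41 in KO 3 and -0.18 in WT 7, against -0.37 to 0.25 in the others, so WT 7 lay within their range. Kdelr1, the receptor that returns ER proteins from the Golgi, had log2 values of 6.49 in KO 2, 5.95 in KO 3 and 6.40 in WT 7, against 6.98 to 7.88 with a median of 7.51, with no overlap (difference -1.22, SE 0.19, limma adjusted p = 0.000207). Tmed4, a cargo receptor, fell by 1.33, and the COPII coat gene Sec24d by 1.12. The proton pump that acidifies granules and lysosomes had 5 of 15 genes lower and none higher, with a median of -0.28. The pump had medians of -0.74 in KO 2, -0.18 in KO 3 and -0.14 in WT 7, against -0.19 to 0.27 in the others. Its subunit gene Atp6v1b2 had 6.75, 6.11 and 6.11 in KO 2, KO 3 and WT 7, against 7.03 to 7.94, and fell by 1.17 (SE 0.19, limma adjusted p = 0.000242).

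Insulin granule cargo and processing genes had 2 of 19 lower, 1 higher and a median of 0.02. Ins2 had log2 values of 18.98 in KO 2, 19.46 in KO 3 and 19.03 in WT 7, against 18.16 to 19.00 with a median of 18.45, and its difference of 0.60 (95% interval -0.06 to 1.26) did not pass the test (limma adjusted p = 0.196). KO 3 and WT 7 lay above all others and KO 2 within their range. Ins1, with 15.36, 15.39 and 16.71 in KO 2, KO 3 and WT 7 against 14.35 to 16.33, differed by 0.28 (95% interval -0.34 to 0.91, limma adjusted p = 0.549). Scg2, a granin, rose by 0.75. The 2 genes that fell, Vgf, another granin-like peptide precursor, by 1.78, and the convertase gene Pcsk1 by 0.80, were named after their values were seen.

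Of the stromal lists, matrix genes had members that rose and endothelial genes members that fell. Over the matrix, endothelial and myeloid lists, 3 of 28 genes tested rose and 2 fell, or 10.7% and 7.14%. These shares lay near the 6.98% and 10.3% of all genes tested. Of 29 matrix and stromal genes listed, 10 passed the filter, and of these 3 rose, none fell (5 and 0 at an unadjusted p under 0.05) and all 10 had a difference above 0, with a median of 0.44, or 0.83 without WT 7. It was 0.71 over 16 genes with a mean log2 above 3 and 0.72 over 4 genes with one above 6. The fibroblast and stellate cell markers Col1a1, Col1a2, Col3a1, Dcn and Pdgfrb were listed but did not pass the filter, so they were not tested. The median was 0.93 in KO 2, 0.56 in KO 3 and 0.44 in WT 7, against -0.45 to 0.38 in the other libraries, and this was the 1 of 34 lists in which all 3 lay above all 15. Sparc, a collagen-binding matrix protein, had log2 values of 8.57 in KO 2, 8.32 in KO 3 and 8.49 in WT 7, against 7.03 to 7.97 with a median of 7.44. Col4a1, a chain of the basement membrane collagen, had 7.93, 7.11 and 6.90 in KO 2, KO 3 and WT 7, against 6.03 to 6.87 with a median of 6.47. Neither gene overlapped between the groups, and they rose by 0.98 (SE 0.18, limma adjusted p = 0.00114) and 0.85 (SE 0.18, limma adjusted p = 0.00369). Vim, the intermediate filament vimentin, rose by 0.96. In linear terms the 29 genes summed to 2036 CPM in KO 2, 1093 in KO 3 and 974 in WT 7, against 617 to 1003 in the others, so WT 7 lay inside their range by this measure. In bulk islets, more stromal cells and more RNA per stromal cell cannot be told apart, nor can fewer cells of another type and less RNA per cell.

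Few markers of other cell types in the islet preparations passed the test. Of 13 endothelial genes 2 fell and none rose, with a median of 0.06, and the lower share of 15.4% stood near that of all genes tested. The adhesion molecule gene Pecam1 fell by 0.58 and Igfbp7 by 0.88 (both named after their values were seen), while Eng, Robo4 and Egfl7 had differences of 0.63, 0.57 and 0.41 that did not pass the test. None of 5 myeloid, 8 alpha cell, 4 delta and PP cell, 9 acinar and 3 adipocyte genes passed the limma test. At an unadjusted p under 0.05, 1 myeloid, 2 alpha cell, 2 delta and PP cell, 1 acinar and 0 adipocyte genes were lower, and 1 alpha cell gene was higher. The acinar median was -1.26, from values of -0.31 in KO 2, -0.74 in KO 3 and -2.76 in WT 7, but the other libraries spread from -3.10 to 2.89. Summed over 19 listed acinar genes, KO 2 had 360 CPM, KO 3 286 and WT 7 77.2, against 59.8 to 2515 in the others, and 2, 1 and 5 of the 19 were at 0 reads in KO 2, KO 3 and WT 7, against 0 to 4 in the others. Their part in the results was not tested. Of 8 duct genes 3 fell and none rose, 37.5% lower beside 10.3% of all genes tested. Their median was -0.86 in KO 2, -0.17 in KO 3 and 0.12 in WT 7, against -0.35 to 0.27 in the others. KO 3 and WT 7 thus lay within that range. Spp1, osteopontin, fell by 1.56, and the claudin genes Cldn7 and Cldn4 fell by 0.73 and 0.83. Cldn4 differed from its peers by -1.53 in KO 2, -1.28 in KO 3 and 0.21 in WT 7. Erythrocyte genes were not among the genes tested.

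Immediate early genes had 21 listed and 11 tested, with 3 lower and 1 higher. That is 27.3% and 9.09%, beside 10.3% and 6.98% of all genes tested. Their median was -0.46, which turned to 0.051 with the run of animal numbers as a term. Beside Junb, Ier5 fell by 1.26 and the AP-1 subunit gene Fosl2 by 0.65. Jund, another AP-1 subunit and named after its values were seen, rose by 0.56. By library the immediate early median was -0.68 in KO 2, -0.69 in KO 3 and -0.06 in WT 7. The others spread from -0.40 to 0.61, so WT 7 lay within their range. Of 15 interferon genes 3 fell and none rose, 20% lower beside 10.3% of all genes tested. Their median was -0.47 in KO 2 and -0.62 in KO 3 but 0.30 in WT 7, against -0.53 to 0.48 in the others. Among the lower ones were the class I molecule H2-K1 by 0.75 and Ifit1 by 1.62. From the other libraries of the genotype, H2-K1 differed by -0.15, -1.26 and -0.83 in KO 2, KO 3 and WT 7, and Ifit1 by -0.37, -3.63 and -0.94. Of 9 heat shock genes 1 fell, a share of 11.1% near that of all genes, and this was Hspa8, by 1.03, while of 6 NF-kB and inflammation genes none passed the limma test, nor did any at an unadjusted p under 0.05.

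Beta-cell identity genes had 2 of 17 lower, 2 higher and a median of 0.06. That is 11.8% lower and 11.8% higher, beside 10.3% and 6.98% of all genes tested. By library their median was 0.32 in KO 2, 0.24 in KO 3 and -0.22 in WT 7, against -0.13 to 0.16 in the others. Pdx1, a transcription factor of beta-cell maturity, had log2 values of 7.40 in KO 2, 7.60 in KO 3 and 7.19 in WT 7, against 6.29 to 7.12 with a median of 6.73, with no overlap, and rose by 0.66 (SE 0.18, limma adjusted p = 0.0156). Pax6 had 10.53, 9.61 and 9.05 in KO 2, KO 3 and WT 7, against 8.16 to 9.31, where WT 7 lay among the others, and rose by 0.94. Neurod1 and Insm1, also transcription factors of endocrine cells and named after their values were seen, fell by 0.61 and 1.19. Of 29 proteasome genes 9 fell and none rose, 31.0% lower beside 10.3% of all genes tested, with a median of -0.35. By library the median was -0.65 in KO 2, -0.30 in KO 3 and -0.04 in WT 7, against -0.16 to 0.30 in the others, so WT 7 lay within their range. Psma2, a subunit of the catalytic core, had 4.39, 3.66 and 4.12 in KO 2, KO 3 and WT 7, against 5.11 to 6.71 with a median of 5.89. It fell by 1.80 (SE 0.24, limma adjusted p = 7.99e-05), with all 3 libraries below all others. Of 17 antioxidant genes 7 fell and none rose, 41.2% lower beside the same 10.3%, with a median of -0.50. Among the lower ones was the mitochondrial superoxide dismutase gene Sod2, by 1.44. The antioxidant median was -1.09 in KO 2, -0.34 in KO 3 and -0.05 in WT 7, against -0.25 to 0.35 in the others, so WT 7 again lay within their range. Glycolysis genes split by library, with medians of -1.33 in KO 2, -0.39 in KO 3 and 0.32 in WT 7, and 1 of 11, Tpi1, fell, by 1.29, a share of 9.09% near that of all genes.

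Outside the lists, the lower genes of smallest p were led by Nme2 (chromosome 11, 93949814 to 93956256), a nucleoside diphosphate kinase. It had log2 values of 4.41 in KO 2, 4.61 in KO 3 and 4.12 in WT 7, against 5.39 to 6.46 with a median of 6.19, with no overlap, and fell by 1.78 (SE 0.19, limma adjusted p = 6.51e-06). Banf1, which bridges chromatin and the nuclear lamina, had 1.94 to 3.27 in KO 2, KO 3 and WT 7, against 4.02 to 5.31, and fell by 2.04. Slc3a2, the heavy chain of amino acid transporters, had 6.09, 5.16 and 5.65, against 6.69 to 7.76, and fell by 1.48. The neuronal adhesion molecule gene Cntn1 fell by 1.09, the 14-3-3 gene Ywhaq by 1.58, Mageh1 by 1.21 and Armc10 by 1.60, and for each the 3 libraries lay below all 15 others.

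The higher genes were of other kinds. Akap8l (chromosome 17, 32321424 to 32350616), a nuclear anchoring protein, had log2 values of 8.18 in KO 2, 7.93 in KO 3 and 7.99 in WT 7, against 6.35 to 7.20 with a median of 6.99. It rose by 1.14 (SE 0.17, limma adjusted p = 0.000117). Crebrf, a negative regulator of the ER stress factor CREB3, had 8.57, 8.65 and 8.47 in KO 2, KO 3 and WT 7, against 6.52 to 7.88, and rose by 1.16 (SE 0.19, limma adjusted p = 0.000284). The channel gene Hcn2, which carries a hyperpolarization-activated current, rose by 1.31, the actin regulator gene Mical3 by 1.30, the anion exchanger gene Slc4a3 by 1.06, and Abtb1, Cxxc4 and Cfap97 by 1.32, 0.96 and 1.29. All of these lay above all 15 other libraries in each of KO 2, KO 3 and WT 7. Of 74 zinc finger protein genes tested, of 247 listed, 8 rose and 1 fell, with a median of 0.13. The shares were 10.8% and 1.35%, beside 6.98% higher and 10.3% lower among all genes tested. By library the median was 0.21 in KO 2, 0.26 in KO 3 and 0.11 in WT 7, against -0.17 to 0.26 in the others, with KO 8 the highest of these. Zfp318 rose by 0.81, Zfp638 by 0.80 and Zfp608 by 0.89. Splicing factors went both ways, with 6 of 44 lower, among them Hnrnpk by 0.95, and 5 higher, or 13.6% and 11.4%, near the shares of all genes.

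The lower and higher genes differed in transcript length. Among the 5440 tested genes with an annotated length, the median was 2423 bases in the lower genes, 4358 in the higher ones and 3471 in those not called. In the shortest of 8 bins of 680 genes, 371 to 1489 bases, 20.4% of genes fell and 3.82% rose, and in the longest, from 6727 bases, 2.35% fell and 10.7% rose. The median difference was -0.23 in the shortest bin and 0.20 in the longest. Across genes, the Spearman correlation of length with the difference from the other libraries of the genotype was 0.31 in KO 2, 0.20 in KO 3 and 0.03 in WT 7, and it spread from -0.20 to 0.26 in the other libraries, with KO 8 the highest of these. Genes are not independent replicates, and these values are descriptions. The complex I list had a median length of 1042 bases, the cytosolic ribosomal list 1049, the ER chaperone list 2461 and the matrix and stromal list 3234. The part of length in the differences between lists was not tested.

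**Figure D4:**
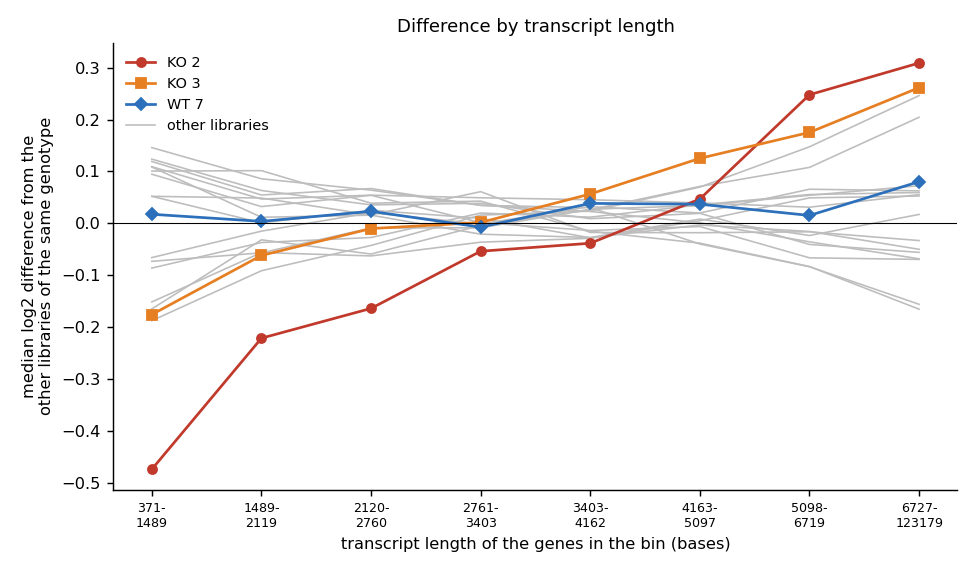
Median log2 difference from the other libraries of the same genotype (y axis) in 8 bins of 680 genes by transcript length (x axis, bases), for KO 2, KO 3 and WT 7 (coloured) and the other 15 libraries (grey). KO 2 and KO 3 climb with length, WT 7 stays near 0, and some other libraries slope either way.

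The low-complexity libraries of each genotype were also set against the other libraries of that genotype, which share no library. KO 2 and KO 3 against the other 8 KO libraries had 583 genes lower and 423 higher, 10.7% and 7.77% of the genes tested. WT 7 against the other 7 WT libraries, with its spread taken from the other groups because it stands alone, had 115 lower and 4 higher, 2.11% and 0.0735%. Both comparisons called 46 genes lower, which is 7.89% of the KO list and 40.0% of the WT 7 list, and 1 gene higher. Of the 115 genes lower in WT 7, 103 were below 0 in KO 2 and KO 3, 89.6%, against 50.3% of all genes tested, with a median of -0.61. Of the 583 genes lower in KO 2 and KO 3, 75.3% were below 0 in WT 7, against 47.8% of all genes tested. Across genes the differences of the genotypes correlated with a Pearson r of 0.32 and a Spearman rho of 0.29. The difference between the genotypes itself passed the test in 4 genes, 0.0735%: Bmi1, a Polycomb subunit, Ambp, the precursor of alpha-1-microglobulin, Cers2, a ceramide synthase, and Dach1, a transcription cofactor, all lower in WT 7 relative to KO 2 and KO 3.

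**Figure D5:**
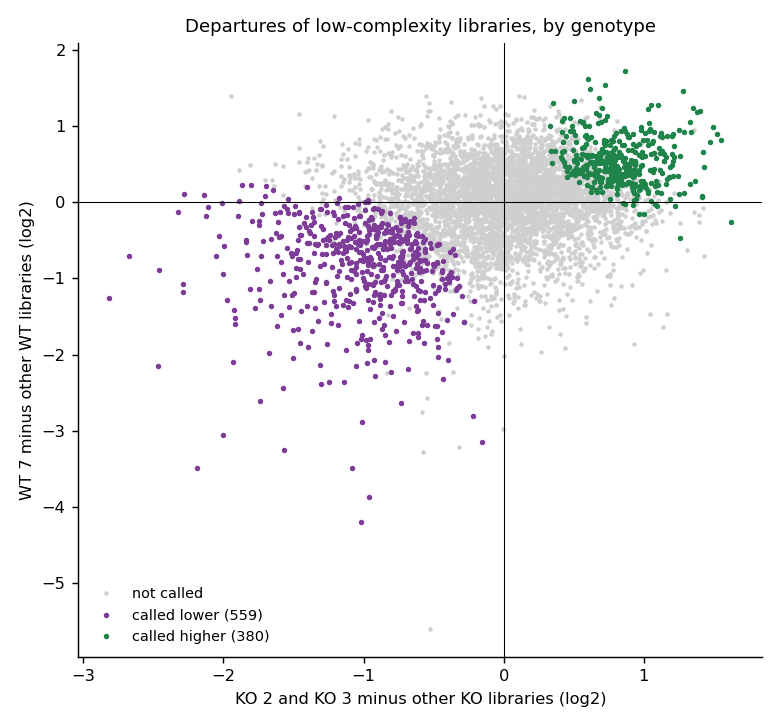
Log2 difference of each of 5444 genes in KO 2 and KO 3 from the other KO libraries (x axis) and in WT 7 from the other WT libraries (y axis). The 559 genes called lower (purple) and the 380 called higher (green) were chosen on both axes together; Pearson r over all genes is 0.32.

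The titles hold animal numbers, and KO 2 and KO 3 carry consecutive numbers with WT 1 and WT 2, as does WT 7 with WT 6. With the run of consecutive numbers as a term, limma called 12 lower and 0 higher genes, and 418 and 232 had an unadjusted p under 0.05. That fit leaves 8 residual degrees of freedom in place of 15, and the median SE was 0.31, against 0.22. All of the 559 lower genes and 99.7% of the 380 higher ones kept their sign, with medians of -0.72 and 0.50. Among the 12 were Nme2, Banf1, Slc3a2, Mageh1, Cntn1 and Spp1. Within a run, the complex I median was -0.23 for WT 7 minus WT 6 and -0.79 for KO 2 and KO 3 minus WT 1 and WT 2, a contrast that also holds the genotype. The ER chaperone median was -0.26 and -0.54 in these contrasts, the cytosolic ribosomal median -0.12 and -0.45, and the matrix and stromal median 0.37 and 0.62. The labels do not say what a run shares.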

How the data were processed

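Islet RNA of 18 mice was read with a 3' end kit (QuantSeq FWD, single reads), per the labels' protocols. GRCm38, edgeR, HTSeq 0.6.1 and STAR 2.5.2 stand in the submitters' processing notes, with no roles given. The authors deposited log2 values for 10509 genes. Neither their annotation nor their gene filter or prior count is stated there. After the shared floor of 0.562 CPM was subtracted, the linear values were whole multiples of 1 read (tolerance 0.05) for 100% of values, 1 read being worth 0.377 to 0.411 CPM in KO 2, KO 3 and WT 7 and 0.238 to 0.337 in the others. Listed genes held 2831137 to 3292303 reads in those 3 and 3011974 to 4303680 in the others.

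Genotype comes from the labels, and libraries were numbered within a genotype in accession order. Each library is 1 mouse and counts as 1 sample. No library looked deposited a second time: the 73 pairs of the same genotype differed with 6.01 to 41.3 chi-square units per degree of freedom (genes with at least 10 reads). Genes with a mean log2 above 4 were tested with limma 3.58.1 in R 4.3.3 (empirical Bayes with a variance trend). The fit was also run on simulated data, but no result of that run is given here. It is therefore no check of the p-values under the larger scatter of the low-complexity libraries. P-values measure the spread between libraries of separate mice and compare 3 libraries with 15, not a labelled condition. Lists got counts and medians and no test. The libraries, lists and tests were chosen with earlier results of these data known, and Rps19bp1, which is no ribosomal protein, was taken off the ribosomal list after values were seen. Named genes are Ndufab1, Xbp1, Junb, Ins1 and Ins2, the 10 of smallest p in each direction, for each list up to 3 of smallest p in the direction of most of its members, and the genes called for the difference between genotypes. Others are said to be chosen later. Coordinates are those of RefSeq GRCm38.p6, and lengths those of the longest GENCODE transcript. Nmrk1 lay below the filter.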

Additional observations from a re-analysis of the deposited data

Results flagged for a closer look

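Within a genotype, 58 groups of values were examined for a library whose gap to its nearest neighbour was large for the range of the group, and 15 held one, where chance marks about 1 in 20 groups. That rate does not apply to them: the libraries were chosen on their genes at 0 reads, and most of the genes for their small p in this comparison, so that these values stand apart was fixed by the choice. Of the 15, 13 concerned WT 7. Among 10 KO libraries, KO 2 stood alone for Ndufab1 with a log2 value of 2.45, and KO 3 for Xbp1 with 3.98. Among 8 WT libraries, WT 7 stood alone with 346 genes at 0 reads and with an SD of 0.60 of the differences from its peers. Its log2 values stood alone for Ndufab1 (3.54), Junb (1.78), Nme2 (4.12) and Banf1 (1.94). They also stood alone for Cntn1 (5.63), Slc3a2 (5.65), Ywhaq (4.58) and Mageh1 (5.52). The remaining ones were Ostc (7.03), Armc10 (2.99) and, on the high side, Akap8l (7.99).

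For 4 genes the difference of the low-complexity libraries from their peers was not the same in the genotypes by limma's test. WT 7 minus KO 2 and KO 3 was -3.18 for Bmi1, -2.63 for Ambp, -3.00 for Cers2 and -1.72 for Dach1. Ambp and Dach1 were above their peers in KO 2 and KO 3 and below them in WT 7. WT 7 is a single library.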

How the results depend on the processing

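The counts of genes depend on which libraries count as low-complexity. With 300 or more genes at 0 (KO 2 and WT 7) there were 111 genes lower in low-complexity libraries and 13 genes higher in low-complexity libraries, and with 150 or more (adding WT 1) 219 were higher. With a mean log2 above 6 the counts were 200 and 216 among fewer genes tested, with an adjusted p under 0.01 they were 251 and 88, and with the run of animal numbers as a term 12 and 0. Leaving out each library gave 309 to 626 lower and 104 to 458 higher genes, with the fewest of each without KO 3 and 238 higher without KO 2. On the recovered reads, limma voom called 457 lower and 293 higher. With the run as a term the list medians were -0.47 for complex I, -0.24 for complexes II to IV, -0.013 for mitochondrial ribosomal proteins, -0.089 for cytosolic ribosomal proteins, -0.059 for the translocon and 0.051 for immediate early genes. With a mean log2 above 6, complex I was at -0.42, and the matrix list was at 0.71 with a mean log2 above 3 and 0.72 above 6. Leaving out each library gave medians of -0.72 to -0.23 for ATP synthase, -0.26 to -0.022 for mitochondrial ribosomal proteins, -0.53 to -0.10 for cytosolic ribosomal proteins (each highest without KO 2) and 0.34 to 0.83 for the matrix list (highest without WT 7). The sign turned in genes that had not passed the test: with the run as a term Gcg was at 0.066, Fabp4 at -0.17, Scd1 at -0.20, Hsph1 at 0.037, Bcl3 at 0.17 and Nfkbiz at 0.10, and leaving out each library gave -0.16 (without KO 2) to 0.24 for Fabp4, -0.37 (without WT 7) to 0.56 for C1qa and -0.14 (without WT 7) to 0.32 for Scd1. The cause was not tested. At mean log2 values of 4 to 5, counting alone gives an SD of 0.22 to 0.23 in KO 2, KO 3 and WT 7, where 0.70 to 0.80 was seen, and of 0.17 to 0.19 in the others, where 0.38 to 0.55 was seen. No paired analysis was possible because the labels pair no KO mouse with a WT mouse, and the run of animal numbers was the block that could be fitted.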
